A study of Mus musculus with 18 samples.

Results

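The effect of Sh3gl1 loss that 3 states of mouse B cells have in common was measured by comparing all 9 KO libraries with all 9 WT libraries, with cell state as a term of the fit. The members were therefore 18 of the 18 libraries of the series. Sh3gl1 encodes endophilin A2, and the KO cells came from Sh3gl1-/- mice, the WT cells from littermates, all labelled C57BL/6. The states were transitional B cells (TRANS), follicular B cells (FO) and follicular B cells cultured with CD40L (CD40L, 14 h in the labels), sorted by flow cytometry, with 3 libraries in each of the 6 groups. TRANS and FO cells carry the label untreated, and the ages of the mice used for RNA are not given in the sources used here. The knockout is carried in the germ line, so that every other cell type of the mice lacked endophilin A2 too.

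Endophilins are curved BAR-domain proteins that bind membranes and, through an SH3 domain, recruit dynamin and synaptojanin to forming endocytic vesicles. In B cells endophilin A2 takes part in the uptake of the antigen receptor (BCR), whose cargo is later shown to T cells on MHC class II. Transitional cells are recent emigrants from bone marrow, follicular cells are the mature recirculating cells, and CD40 ligand is the T cell signal that drives activated B cells to grow.

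Library totals ran from 12404665 to 18366011 expected counts, the estimated read counts per gene. Levels are given as CPM, counts scaled to a common normalised library size, and 3 counts in a library corresponded to 0.176 to 0.240 CPM. Differences are log2 fold changes of KO over WT, averaged over the 3 states, ± SE from 18 libraries unless said otherwise. The summed level of 7 B cell markers was 8840 to 18995 CPM, against 72.7 to 336 CPM for 9 T cell markers. One property of the libraries bears on every average below. In each of the 6 groups 1 library had Xist at 404 to 452 CPM, and it was replicate 3 in WT and replicate 2 in KO in every state. Libraries of 1 genotype with the same number also deviated together across states (mean correlation 0.129, against −0.064 for different numbers), so libraries of different states may come from the same mice. The labels do not say so. The 9 libraries of a genotype may thus represent 3 mice, and the average was therefore also fitted on counts summed per genotype and number, which leaves 3 sums against 3.

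Sh3gl1 was the gene with the lowest p. In WT cells it stood at 40.4, 34.8 and 29.8 CPM in TRANS, at 34.2, 35.1 and 33.6 CPM in FO and at 57.9, 53.6 and 56.9 CPM in CD40L cells. In KO cells it stood at 0.255 to 0.791 CPM in TRANS, 0.0716 to 0.191 CPM in FO and 0.689 to 1.76 CPM in CD40L cells, which were 1 to 22 counts per library. Every KO library thus matched its label, and the average difference was −6.14 ± 0.23 (edgeR adjusted p = 3.56e-13). Of the paralogs, Sh3glb1 and Sh3glb2, which encode the B-type endophilins, differed by 0.02 ± 0.09 and −0.04 ± 0.08, and neither passed the test. Sh3gl2 and Sh3gl3, the other A-type endophilins, were at 0 CPM in all libraries except 1 KO library with 0.150 CPM of Sh3gl3, and were too low to be tested.

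Across the 3 states, 492 of 15117 genes tested (3.25%) differed between KO and WT (edgeR's quasi-likelihood test, adjusted p threshold 0.05). Of these, 243 genes (1.61%) were higher and 249 (1.65%) lower in KO cells. The median difference was 0.70 among the higher genes and −0.46 among the lower ones, beside 0.00 over all genes tested. A change of more than 2-fold was found in 70 higher and 50 lower genes. Of the 492 genes, 481 had the same sign in each state, as had 33.7% of all genes tested. In 159 of them the KO and WT libraries did not overlap in any of the 3 states, which held for 1.1% of all genes tested. These were 78 higher and 81 lower genes, against 0.549% and 0.556% of all genes without overlap in those directions. Sign and overlap were read in the same libraries that gave the calls. With counts summed per genotype and number, 113 genes (0.748%) passed, 82 higher (0.542%) and 31 lower (0.205%), and 105 of these were among the 492.

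Taken 1 state at a time, far fewer genes passed. The contrasts were read from 1 fit of the 6 groups. In TRANS cells 144 genes (0.953%) were called, 75 higher (0.496%) and 69 lower (0.456%). In FO cells 49 genes (0.324%) were called, 29 higher (0.192%) and 20 lower (0.132%). In CD40L cells 82 genes (0.542%) were called, 48 higher (0.318%) and 34 lower (0.225%). Of the 492 genes of the average, 333 were called in no single state, 120 in 1 state, 24 in 2 and 15 in all 3. The state contrasts share no library, but they may share mice. Whether the effect differed between states was tested as an interaction, which called 0 genes in edgeR. At an unadjusted p under 0.05 the interaction held 1428 genes (9.45%), and DESeq2 called 78.

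The leading gene with a higher level in KO cells was Hivep3, a large zinc-finger protein that binds motifs of the kappaB type. WT cells held 34.1, 42.6 and 36.3 CPM in TRANS, 12.4, 12.7 and 7.68 in FO and 17.8, 10.2 and 13.9 in CD40L cells. KO cells held 138, 138 and 129 CPM in TRANS, 67.8, 55.8 and 48.0 in FO and 39.4, 57.7 and 39.2 in CD40L cells. Each KO library was above every WT library of its state. The difference was 1.97 ± 0.13 (adjusted p = 1.42e-08), and it was 1.84 in TRANS, 2.38 in FO and 1.70 in CD40L cells. Hivep1 and Hivep2, the other members of the family, did not pass the test.

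Klra1, which encodes the inhibitory MHC class I receptor Ly49A of natural killer cells, followed the same pattern at lower levels. It was at 16.8 to 20.1 CPM in TRANS WT cells and at 40.6 to 52.3 in TRANS KO cells. In FO cells it was at 9.78 to 10.3 CPM in WT and 26.9 to 29.6 in KO, and in CD40L cells at 1.54 to 3.38 in WT and 4.72 to 7.77 in KO. The groups did not overlap in any state (1.35 ± 0.12, edgeR adjusted p = 6.97e-07). The related Klra3 and Klra9 were called as well, and reads of these near-identical genes could have been split between them. Of the 8 natural killer cell markers only Nkg7 was called higher. Their sum was 35.5 to 72.2 CPM in TRANS WT and 55.1 to 94.75 in TRANS KO cells, and 46.15 to 107 and 79.9 to 111 CPM in FO cells. In CD40L cells it was 6.01 to 9.12 CPM in WT and 4.31 to 8.21 in KO. The part of natural killer cell RNA in the Klra1 difference was not tested.

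Cdk5rap1, an enzyme that modifies mitochondrial tRNA, was at 8.81 to 16.4 CPM in the 9 WT libraries and at 24.1 to 49.0 in the 9 KO libraries, so that no WT library of any state reached a KO library (1.67 ± 0.16). In each state KO replicate 3 was the lowest KO library. Samsn1, an adaptor that dampens B cell activation, rose from 119, 143 and 142 CPM in TRANS WT cells to 205, 182 and 225 in TRANS KO cells. It was at 116 to 158 CPM in FO WT and 241 to 251 in FO KO cells. After CD40L it was at 318 to 394 CPM in WT and 494 to 632 in KO cells (0.72 ± 0.07, edgeR adjusted p = 9.96e-06). Both genotypes thus had more Samsn1 in CD40L cells than ex vivo, with KO above WT in each state.

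**Figure D1:**
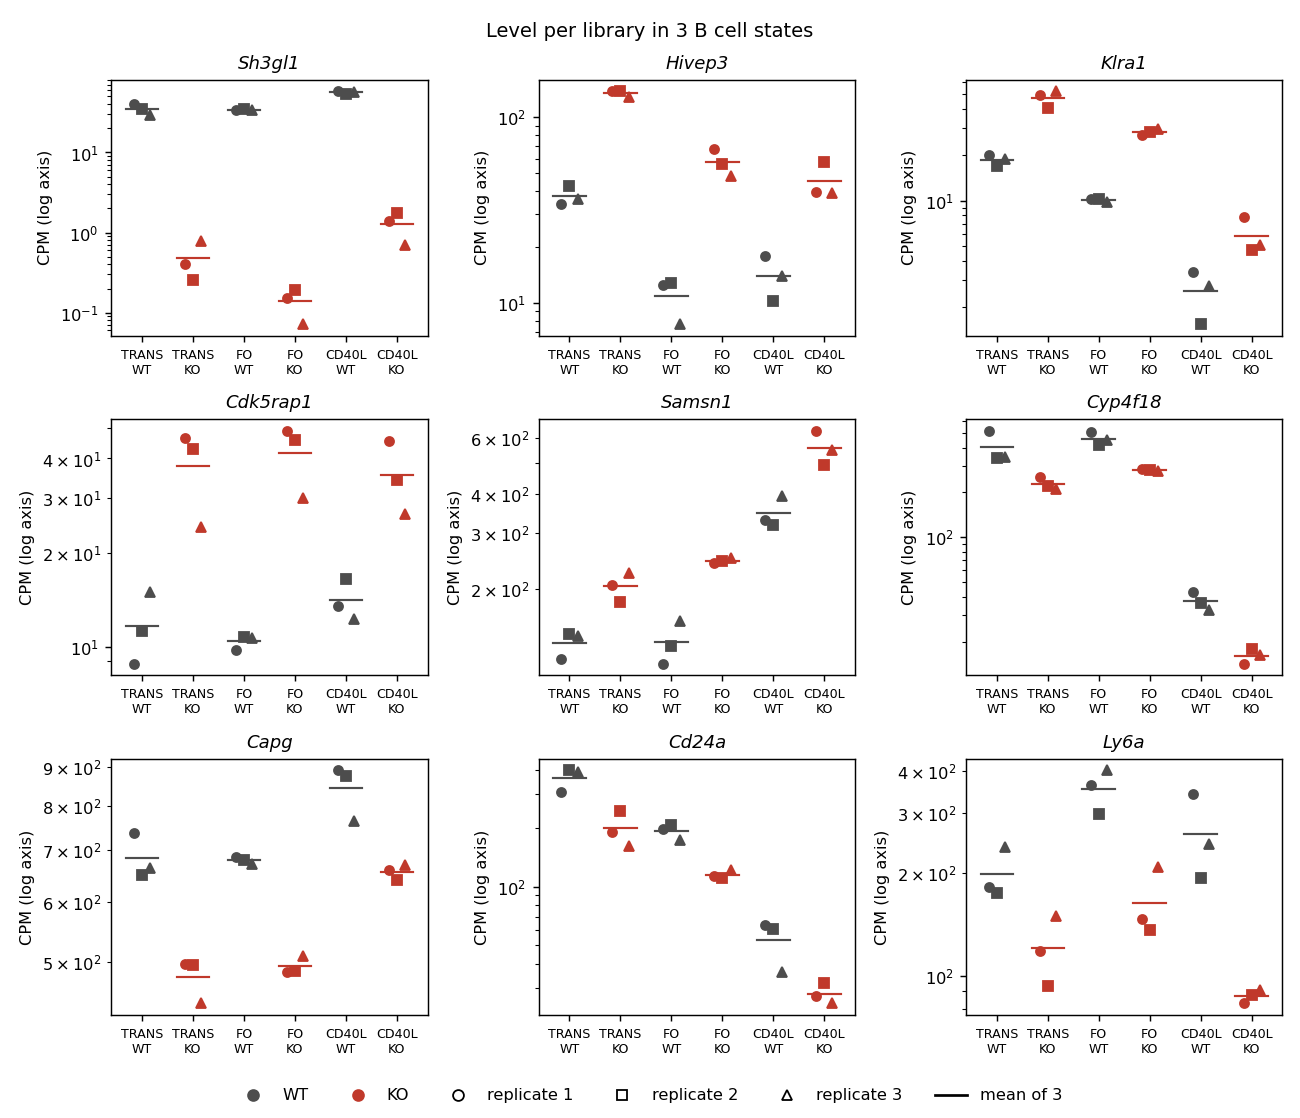
Level in CPM (log axis) of Sh3gl1, 4 leading genes higher in KO and 4 leading genes lower in KO, in each of the 18 libraries, with WT in grey, KO in red, the symbol giving the replicate number and the line the mean of 3. In each panel and each state the 3 KO libraries lie on 1 side of the 3 WT libraries, for Hivep3 at 48.0 to 67.8 against 7.68 to 12.7 CPM in FO cells.

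The other leading higher genes had differences between 0.54 and 1.89, apart from Stap2, which is described with its neighbours on chromosome 17. Rgl1, an exchange factor for Ral GTPases, differed by 1.41 ± 0.15 and was at 2.27 to 4.28 CPM in CD40L WT against 11.2 to 13.8 CPM in CD40L KO cells. Pcp4, a calmodulin-binding peptide, differed by 1.38 ± 0.16. Fam3c, a secreted cytokine-like protein, differed by 0.86 ± 0.09, Bbs9, a subunit of the ciliary BBSome, by 0.84 ± 0.09, Rab30, a Golgi GTPase, by 0.54 ± 0.06, and Dennd5b, a DENN-domain protein, by 0.65 ± 0.08. Crisp3, a secreted cysteine-rich protein, differed by 1.34 ± 0.15 and Fam167a by 0.91 ± 0.12. Lat, the membrane adaptor of T cell receptor signalling, differed by 0.77 ± 0.10, beside T cell markers of which 5 of 9 were called higher. The part of T cell RNA in the Lat difference was not tested.

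Among the genes with a lower level in KO cells, Cyp4f18, a fatty acid hydroxylase that acts on leukotrienes, was at 517, 341 and 347 CPM in TRANS WT and 254, 220 and 211 in TRANS KO cells. In FO cells it was at 418 to 505 CPM in WT and 279 to 288 in KO. After CD40L both genotypes were far lower, at 32.8 to 42.9 CPM in WT and 14.2 to 18 in KO. The average difference was −0.90 ± 0.09 (edgeR adjusted p = 1.1e-05), and with summed counts it missed the threshold (adjusted p = 0.061). Capg, which caps actin filaments, changed less but with little spread. It was at 650 to 737 CPM in TRANS WT and 442 to 497 in TRANS KO cells, at 672 to 686 and 486 to 510 CPM in FO cells, and at 765 to 890 and 640 to 669 CPM in CD40L cells (−0.45 ± 0.05, adjusted p = 1.11e-05).

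Cd24a, a small GPI-anchored protein that is high on immature B cells, was at 310 to 398 CPM in TRANS WT and 163 to 246 in TRANS KO cells, at 173 to 207 and 111 to 122 CPM in FO cells, and at 36.2 to 63.4 and 24.9 to 31.9 CPM in CD40L cells (−0.85 ± 0.10). Ly6a, the GPI-anchored stem cell antigen Sca-1, was at 194 to 342 CPM in CD40L WT and 83.0 to 90.7 in CD40L KO cells, and at 298 to 400 against 136 to 208 CPM in FO cells (−1.13 ± 0.14). In TRANS cells it was at 175 to 238 CPM in WT and 93.5 to 150 in KO. Fcrl5, an Fc receptor-like protein of marginal zone B cells, differed by −0.90 ± 0.12, Il10ra, the ligand-binding chain of the interleukin-10 receptor, by −0.63 ± 0.09 and Lilra6, a paired immunoglobulin-like receptor, by −1.14 ± 0.14. Pgap1, which trims the GPI anchor, differed by −0.64 ± 0.07, and Plac8, a small cysteine-rich protein, by −0.91 ± 0.11. The remaining leading lower genes were Csprs (−1.08 ± 0.12), Plekhm3 (−0.44 ± 0.06), Gm11998 (−1.09 ± 0.15) and 2 genes near Sh3gl1. All 30 leading genes had KO and WT libraries without overlap in every state, and 27 of the 30 were called in TRANS alone, 20 in FO and 22 in CD40L cells. With summed counts 28 of the 30 were called, all but Cyp4f18 and Il10ra (edgeR adjusted p = 0.091). The 30 genes were chosen by their p in these same libraries, so these counts follow in part from that choice.

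**Figure D2:**
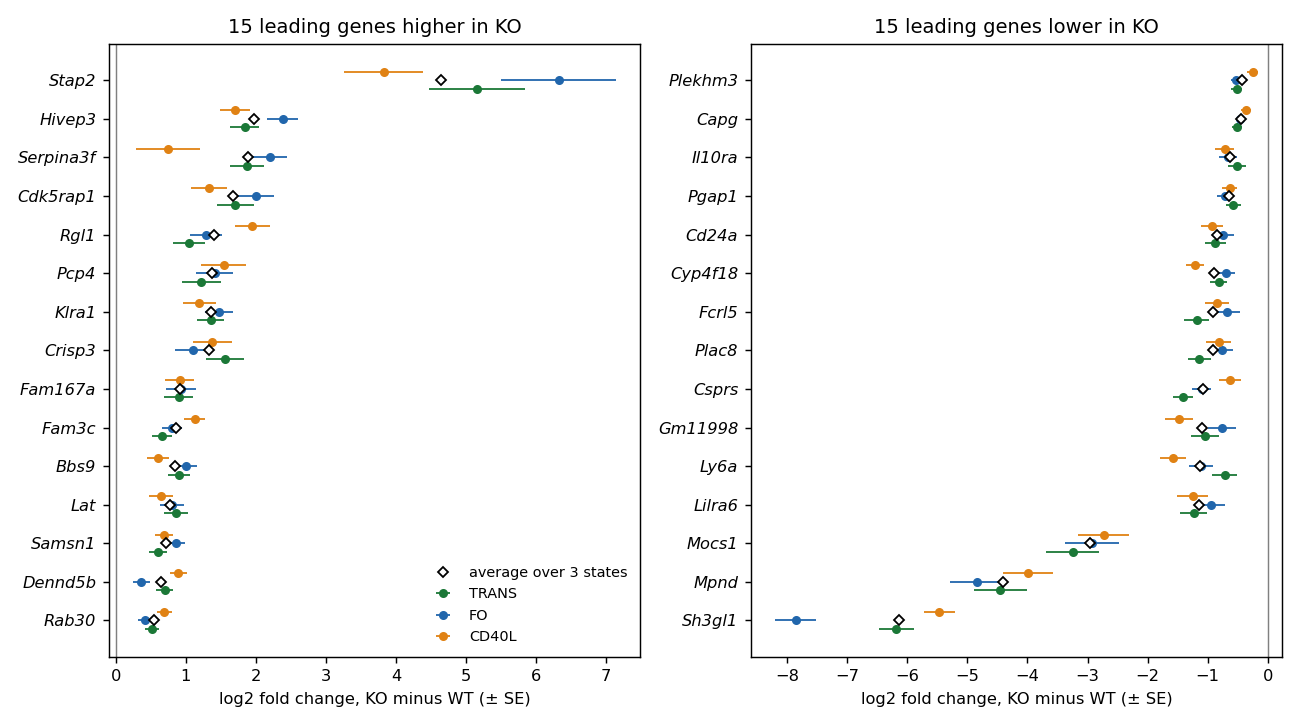
Log2 fold change of KO over WT (± SE) in each state for the 15 leading genes higher and the 15 leading genes lower in KO, with the diamond at the average over the 3 states. The genes were chosen to have 1 sign in all states, and the state values nearest to 0 are 0.36 for Dennd5b in FO and −0.25 for Plekhm3 in CD40L cells, while the FO value of Stap2 is no measured fold, since its FO WT libraries held 0 to 2 counts.

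Of 17 members of the list for antigen presentation on MHC class II that were tested, 8 were called higher and 0 lower, beside 1.61% and 1.65% of all genes tested, and 15 of the 17 had a positive difference. The median over the list was 0.21, beside 0.00 over all genes. With KO replicate 1 left out in all 3 states 3 members were called, with WT replicate 2, WT replicate 3 or KO replicate 3 left out in the same way 5, with TRANS or FO left out 2, and with summed counts 2, H2-Oa and Ciita, all of them higher.

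Ciita, the coactivator on which transcription of class II genes depends, was at 216, 234 and 229 CPM in TRANS WT and 378, 336 and 388 in TRANS KO cells. It was at 394 to 407 CPM in FO WT and 486 to 544 in FO KO cells, and at 255 to 334 and 347 to 428 CPM in CD40L cells (0.48 ± 0.07, edgeR adjusted p = 2.46e-04). H2-Oa, a chain of the DO protein that restrains peptide loading, was at 280 to 320 CPM in TRANS WT and 368 to 441 in TRANS KO cells, at 483 to 502 and 612 to 724 CPM in FO cells, and at 215 to 270 and 295 to 316 CPM in CD40L cells (0.41 ± 0.06). Neither gene's groups overlapped in any state. Of the antigen-presenting chains, H2-Aa was at 4094 to 4582 CPM in TRANS WT and 5297 to 5515 in TRANS KO cells and at 5884 to 6690 against 7434 to 7907 CPM in FO cells, while its CD40L libraries overlapped at 5606 to 6151 and 5959 to 6422 CPM (0.21 ± 0.04). H2-Eb1 differed by 0.25 ± 0.05, with 0.39 in TRANS, 0.29 in FO and 0.08 in CD40L cells. H2-Ob (0.27 ± 0.07), H2-DMa (0.21 ± 0.05), H2-DMb1 (0.23 ± 0.05) and the protease Ctsl (0.65 ± 0.15) made up the 8. H2-Eb2, a class II beta chain outside the list that was picked out after its value was seen, differed by 0.58 ± 0.12 and was not called with summed counts (edgeR adjusted p = 0.12). H2-Ab1 at 0.18 ± 0.10 and the invariant chain Cd74 at 0.09 ± 0.03 did not pass. The unadjusted interaction p between states was 0.00993 for H2-Eb1 and 0.0374 for H2-Aa, and neither passed after adjustment in edgeR (0.444 and 0.507).

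The promoters of the 3 class II genes shown here hold a match to the reversed CCAAT motif, known in class II promoters as the Y box. The 150 bases before the start of each gene are given from RefSeq (GRCm38.p6), 5′ to 3′ on the strand of the gene, with matches to CTGATTGG on either strand in capitals.
H2-Oa (chr17:34092229-34092378, + strand): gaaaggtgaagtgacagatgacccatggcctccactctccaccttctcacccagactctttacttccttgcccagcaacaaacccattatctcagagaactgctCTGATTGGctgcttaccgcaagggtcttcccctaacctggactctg
H2-Aa (chr17:34287824-34287973, − strand): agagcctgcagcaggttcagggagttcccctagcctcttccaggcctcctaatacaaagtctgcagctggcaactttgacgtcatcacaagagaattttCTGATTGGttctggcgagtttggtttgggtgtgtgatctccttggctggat
H2-Eb1 (chr17:34305717-34305866, + strand): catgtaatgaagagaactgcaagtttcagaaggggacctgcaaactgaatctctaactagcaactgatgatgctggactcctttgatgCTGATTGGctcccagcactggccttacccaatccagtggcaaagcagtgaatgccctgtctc
The match began 46, 51 and 62 bases before the start of H2-Oa, H2-Aa and H2-Eb1. The motif was in 3 of the 13 class II list promoters that RefSeq's set holds (23.1%), in 5 of 22 class I list promoters (22.7%), in 3.16% of all 32851 promoters, in 4.57% of those of genes tested and in 6.4% of the 203 promoters of genes called higher. It is thus not particular to class II promoters. The match is a feature of the letters and was set beside no measurement of binding.

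Of 22 MHC class I genes 3 were called higher and 0 lower, beside 1.61% and 1.65% of all genes tested, with a median of 0.07. With summed counts 1 was called, Nlrc5. Nlrc5, the class I counterpart of Ciita, was at 21.5, 37.0 and 40.2 CPM in TRANS WT and 55.1, 49.0 and 52.2 in TRANS KO cells. It was at 35.4 to 42.1 and 57.8 to 65.8 CPM in FO cells and at 18.8 to 24.7 and 27.7 to 31.9 CPM in CD40L cells (0.60 ± 0.10, edgeR adjusted p = 1.06e-03). H2-Q6 (0.38 ± 0.06) and H2-Q7 (0.44 ± 0.09), class I genes of the Qa-2 group whose reads are hard to tell apart, were the others. The classical H2-K1 and H2-D1 at 0.15 ± 0.06 and 0.29 ± 0.14 did not pass, nor did B2m, the light chain.

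**Figure D3:**
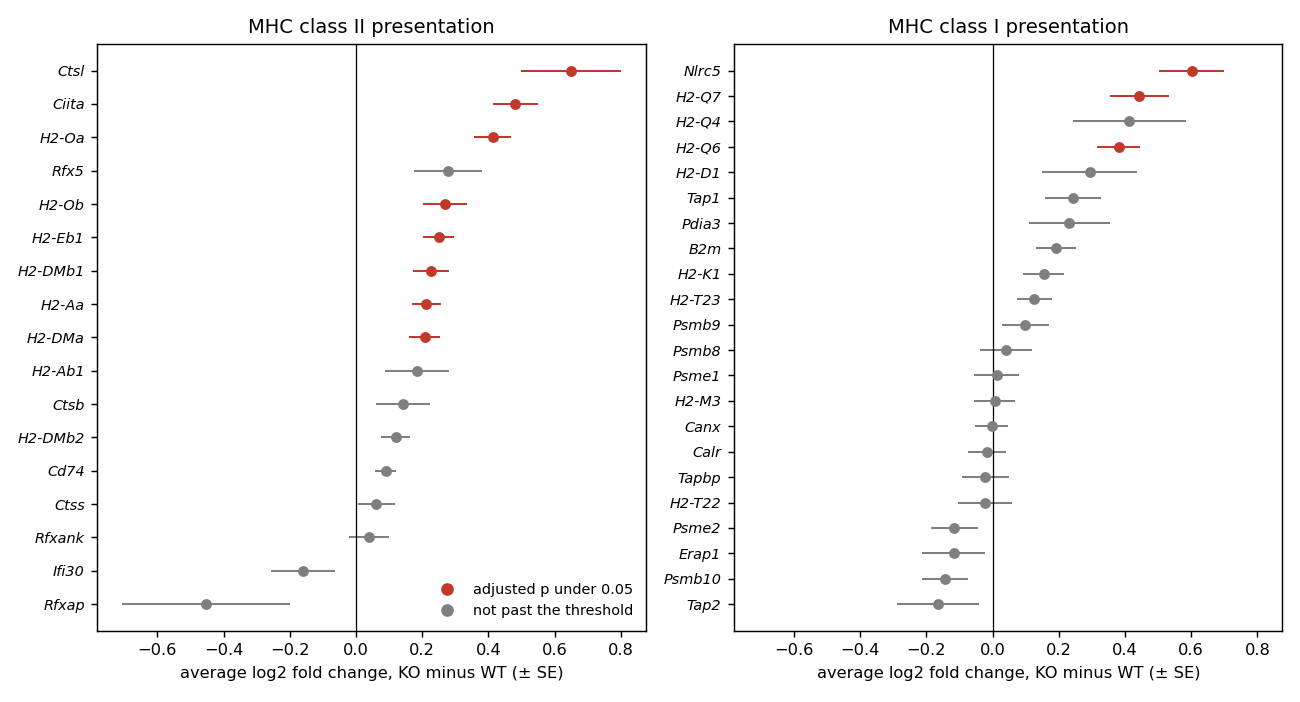
Average log2 fold change of KO over WT (± SE, 18 libraries) of each tested member of the MHC class II and class I lists, with genes at an adjusted p under 0.05 in red. All red points are to the right of 0, 8 of 17 in class II and 3 of 22 in class I.

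Genes of BCR signalling changed in both directions. Of 47 members tested, 3 were called higher and 8 lower, beside 1.61% and 1.65% of all genes tested, with a list median of −0.03. Lower were the scaffold Bank1 (−0.36 ± 0.06), the Ras exchange factor Rasgrp1 (−0.40 ± 0.07), complement receptor Cr2 (−0.40 ± 0.08), the inhibitory Fc receptor Fcgr2b, the coreceptor subunit Cd81, the kinase Syk and the receptor chains Cd79a and Cd79b. Bank1 was at 1469 to 1621 CPM in TRANS WT and 1203 to 1312 in TRANS KO cells, at 1514 to 1706 and 1288 to 1341 CPM in FO cells, and at 451 to 570 and 331 to 439 CPM in CD40L cells. The groups did not overlap in any state. Higher were the exchange factor Vav3 (0.85 ± 0.13), the adaptor Sh3bp2 (0.52 ± 0.08) and the IgD heavy chain Ighd (0.42 ± 0.08). Vav3 was at 6.32 to 9.68 CPM in TRANS WT and 12.1 to 24.4 in TRANS KO cells, at 9.79 to 10.7 and 19.2 to 22.5 CPM in FO cells, and at 10.9 to 15.4 and 19.2 to 20.5 CPM in CD40L cells. The changes in Cd79a, Cd79b and Syk were small, at −0.18 to −0.23. With KO replicate 1 left out in all states 3 members were called higher and 2 lower, and with summed counts 2 were called higher, Vav3 and Sh3bp2, and 0 lower.

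Genes typical of marginal zone, B-1 and memory-type B cells were called in 1 direction, 8 of 39 lower and 0 higher, beside 1.65% and 1.61% of all genes tested, with a list median of −0.15. They were Fcrl5, the lipid-presenting molecule Cd1d1 (−0.54 ± 0.10), the antibody-secretion cofactor Mzb1 (−0.43 ± 0.06), Plxnd1, the giant scaffold Ahnak (−0.88 ± 0.18), S100a10, Lgals1 and the costimulatory ligand Cd86 (−0.42 ± 0.09). Cd1d1 was at 217 to 246 CPM in TRANS WT and 131 to 159 in TRANS KO cells, at 91.1 to 137 and 76.2 to 87.9 CPM in FO cells, and at 52.2 to 69.7 and 35.5 to 58.8 CPM in CD40L cells. Its groups overlapped in CD40L cells and not in TRANS or FO cells. Fcrl5 was at 32.9 to 35.5 and 10.5 to 18.4 CPM in TRANS, at 19 to 29.4 and 10.5 to 18.1 CPM in FO, and at 49.5 to 57.9 and 28.5 to 33.8 CPM in CD40L cells, WT before KO. In a sorted bulk sample fewer cells of a kind and less RNA per cell cannot be told apart. The summed level of 6 marginal zone markers, of which Cd1d1, Cr2 and Plxnd1 were called lower, was below WT in KO cells of each state without overlap. It was 858.5 to 905 CPM in TRANS WT and 598 to 697 in TRANS KO cells, 946 to 1182 and 745.5 to 916 CPM in FO cells, and 461 to 609 and 350 to 418 CPM in CD40L cells. Most of the sum came from Cr2 and Cd1d1, at 540 and 246 CPM of 905 CPM in TRANS WT replicate 1. Cr2 is also in the list of follicular markers, and Cd9, Dtx1 and S1pr3 were not called. The sum therefore largely repeats Cr2 and Cd1d1, which were already called in these libraries. With summed counts 3 members were called lower, Fcrl5, Mzb1 and Cd1d1.

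Markers of B cell maturation fell in 6 of 31 members and rose in 1, beside 1.65% and 1.61% of all genes tested, with a median of −0.03. Beside Cd24a and Cr2 the lower genes were Cd36, a scavenger receptor, Vpreb3, a light chain-like protein of immature cells, the BAFF receptor Tnfrsf13c and Ms4a1, which encodes CD20. Cd36 was at 128 to 183 CPM in TRANS WT and 30.6 to 45.2 in TRANS KO cells, at 44.3 to 73.2 and 20.7 to 34.1 CPM in FO cells, and at 104 to 182 against 36.9, 45.2 and 116 CPM in CD40L cells, where KO replicate 1 overlapped with WT (−1.45 ± 0.20, edgeR adjusted p = 2.39e-04). The gene that rose was Ighd. Only Cd24a was called with summed counts.

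Of the transcription factors of B cells 4 of 57 were higher and 3 lower, beside 1.61% and 1.65% of all genes tested. Hivep3 was joined by Ikzf2, the Ikaros family member Helios, at 3.55 to 6.29 CPM in TRANS WT and 6.70 to 9.20 in TRANS KO cells, 1.43 to 4.82 and 6.59 to 10.9 CPM in FO cells, and 0 to 0.468 and 1.06 to 2.72 CPM in CD40L cells (1.5 ± 0.32). Runx3 and Satb1 were also higher, and Satb1 is described with chromosome 17. The lower genes were Ikzf1, which encodes Ikaros (−0.25 ± 0.05), the B lineage factor Pax5 (−0.22 ± 0.05) and Mef2c (−0.23). Hivep3 and Ikzf2 were the 2 called with summed counts.

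Few partners of endophilin were called. Of 50 genes of the endocytosis machinery, 1 was called higher and 2 lower, beside 1.61% and 1.65% of all genes tested, with a median of 0.03. Arhgap17, a BAR-domain GTPase-activating protein, was at 139 to 163 CPM in TRANS WT and 186 to 236 in TRANS KO cells, at 137 to 163 and 171 to 177 CPM in FO cells, and at 73.9 to 103 and 143 to 158 CPM in CD40L cells, with no overlap (0.47 ± 0.08, edgeR adjusted p = 1.85e-03). Lower were the ubiquitin ligase Cblb (−0.49 ± 0.09) and the phosphatase synaptojanin 2, Synj2 (−0.94 ± 0.22). With summed counts Arhgap17 was called and Cblb and Synj2 were not (edgeR adjusted p = 0.0513 and 0.0674). Of 40 genes of iron handling 2 were called higher and 2 lower, beside 1.61% and 1.65% of all genes tested, with a median of 0.07. Higher were the ferritin light chain Ftl1 (0.29 ± 0.06) and the siderophore-binding Lcn2 (2.42 ± 0.47), and lower were the heme oxygenase Hmox2 and the iron sensor Fbxl5. Fbxl5 differed by −0.71 in TRANS, −0.21 in FO and −0.17 in CD40L cells. Lcn2 was at 0.0612 to 3.24 CPM in WT and 0.480 to 12.7 CPM in KO libraries, highest in KO replicate 1 of each state, where the neutrophil markers were highest too. The part of neutrophil RNA in the Lcn2 difference was not tested. With summed counts, and equally without KO replicate 1 in all states, 0 iron genes were called by edgeR.

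Interferon-induced genes held 3 of 56 called higher and 1 lower, beside 1.61% and 1.65% of all genes tested. The list median was −0.16, and 18 of the 56 had a positive difference. Higher were the interferon-inducible GTPases Iigp1 (1.72 ± 0.32), Tgtp1 (0.81 ± 0.18) and Tgtp2 (0.64 ± 0.11). Tgtp2 was at 95.6 to 140 CPM in TRANS WT and 155 to 218 in TRANS KO cells and at 121 to 141 and 242 to 311 CPM in FO cells, while in CD40L cells the groups overlapped at 12.2 to 16 and 13.9 to 20.1 CPM. Iigp1 was at 0 to 0.0626 CPM in all 6 CD40L libraries. Gbp3, a guanylate-binding protein, was lower (−0.65 ± 0.15), with −1.06 in TRANS, 0.04 in FO and −0.92 in CD40L cells. Both tested members of the serpin a3 family, protease inhibitors with many near-identical copies, rose. Serpina3f was at 6.79 to 11 CPM in TRANS WT and 21.8 to 44.7 in TRANS KO cells and at 6.25 to 8.30 and 29.2 to 37.6 CPM in FO cells, and below 1 CPM in all CD40L libraries (1.89 ± 0.18). Serpina3g was at 55.6 to 89.7 CPM in TRANS WT and 121 to 210 in TRANS KO cells, at 59.6 to 82.8 and 154 to 224 CPM in FO cells, and at 35.7 to 38.0 and 35.4 to 49.9 CPM in CD40L cells (0.97 ± 0.16).

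Serpina3f, Serpina3g, Tgtp1 and Tgtp2 were picked for display because the promoter of each holds a match to TTCNNNGAA. This is the palindromic GAS motif of STAT factors, which reads the same on both strands. The promoters of Iigp1 and Gbp3 are not shown. The 150 bases before the start are from RefSeq (GRCm38.p6), 5′ to 3′ on the strand of the gene, with the match in capitals.
Serpina3f (chr12:104214394-104214543, + strand): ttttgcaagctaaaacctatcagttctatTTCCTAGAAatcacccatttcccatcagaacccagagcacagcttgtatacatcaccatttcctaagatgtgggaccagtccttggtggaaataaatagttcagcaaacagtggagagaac
Serpina3g (chr12:104235997-104236146, + strand): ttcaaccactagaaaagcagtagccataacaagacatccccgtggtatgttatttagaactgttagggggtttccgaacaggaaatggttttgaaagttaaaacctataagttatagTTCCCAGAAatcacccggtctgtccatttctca
Tgtp1 (chr11:48992247-48992396, − strand): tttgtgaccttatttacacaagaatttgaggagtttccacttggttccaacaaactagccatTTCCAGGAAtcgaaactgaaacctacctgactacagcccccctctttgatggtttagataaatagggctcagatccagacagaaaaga
Tgtp2 (chr11:49064213-49064362, − strand): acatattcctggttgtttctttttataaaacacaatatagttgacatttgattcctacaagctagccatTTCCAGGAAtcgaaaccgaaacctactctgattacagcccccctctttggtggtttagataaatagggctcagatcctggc
The motif was in 10 of the 47 promoters of the interferon list (21.3%) and in 3 of 9 of the serpin a3 list (33.3%). It was in 4.09% of all promoters and in 3.58% of those of genes tested. Among promoters of genes called higher the share was 3.94%, so most genes that rose do not carry it in this window. The stretches around the match are nearly the same in Tgtp1 and Tgtp2, and reads of these genes may have been split between them.

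Genes that guide B cells to their place were called in 3 of 25 (12%), beside 3.25% of all genes tested. Gpr183, the oxysterol receptor that positions B cells at the follicle border, was at 133 to 134 CPM in TRANS WT and 51.6 to 81.1 in TRANS KO cells, at 276 to 305 and 194 to 209 CPM in FO cells, and at 502 to 544 and 390 to 462 CPM in CD40L cells (−0.58 ± 0.09). The integrin chain Itga4 was lower too (−0.33 ± 0.06), and the chemokine receptor Ccr6 was higher (0.54 ± 0.12). Of 42 genes of actin and the membrane skeleton 4 were lower (9.52%), Cdc42, Ezr, Arhgdib and Ahnak, and 0 higher, beside 1.65% and 1.61% of all genes tested. In the NF-kB and CD40 list Tnfrsf13c and Cd86 were lower (2 of 36, 5.56%). In the BCL2 family Bid was lower (1 of 24, 4.17%), and of lysosomal genes Ctsl and the proton pump subunit Atp6v0a1 were higher (2 of 40, 5%). Some of these averages were uneven between states. In FO cells the difference was −0.06 for Bid, −0.04 for Arhgdib, −0.12 for Tnfrsf13c and 0.19 for Atp6v0a1. In TRANS cells these genes differed by −0.43, −0.19, −0.71 and 0.49, and in CD40L cells by −0.53, −0.31, −0.30 and 0.96. Ccr6 differed by 0.97 in TRANS, 0.27 in FO and 0.41 in CD40L cells. The shares of the NF-kB, BCL2 and lysosomal lists were near the 3.25% of all genes tested. None of the genes named in this group of lists was called by edgeR with summed counts, where the lowest adjusted p was 0.0613, for Gpr183.

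Lists of housekeeping genes held few calls, beside 3.25% called among all genes tested. Of 79 cytosolic ribosomal protein genes only Rpl3 was called (−0.47 ± 0.10), and the list median was 0.08, with 73 of 79 differences positive. The 77 mitochondrial ribosomal proteins, the 79 nuclear and 13 mitochondrial genes of the respiratory chain, the 37 proteasome subunits, the 38 genes of DNA replication and the 24 of cholesterol synthesis had 0 calls in edgeR. All 13 mitochondrially encoded genes had a positive difference (median 0.22). Mitosis genes, of which 1 of 30 had a positive difference, had a median of −0.46, made up of −1.09 in TRANS, 0.24 in FO and −0.60 in CD40L cells, and Kif20a was the 1 called, lower. DNA replication genes, of which 1 of 38 had a positive difference, had a median of −0.28, with −0.42 in TRANS, 0.10 in FO and −0.46 in CD40L cells. Of the proteasome subunits 5 of 37 had a positive difference, of the mitochondrial ribosomal proteins 20 of 77 and of the nuclear respiratory chain genes 20 of 79. Cholesterol synthesis genes had medians of −0.42 in TRANS, −0.18 in FO and 0.34 in CD40L cells. Glycolysis, amino acid and unfolded protein response lists held 1 call each, Slc2a3 and Syvn1 higher and Phgdh lower, and of the immediate early genes Btg1 was higher. Phgdh differed by −0.87 in TRANS, −0.01 in FO and −0.63 in CD40L cells. None of the genes named for these lists was called by edgeR with summed counts, where the lowest adjusted p was 0.0803, for Slc2a3.

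Genes near Sh3gl1 on chromosome 17 were among those with large changes. Mpnd, whose annotated 3′ end overlaps that of Sh3gl1 on the other strand, was at 8.57 to 17.7 CPM in WT and 0.117 to 1.28 CPM in KO libraries (−4.40 ± 0.25, edgeR adjusted p = 6.18e-10). Whether the counting used strand is not stated, so reads of the overlap could have been given to either gene. Stap2, an adaptor protein gene on the far side of Mpnd, was at 0 to 1.28 CPM in WT and 3.16 to 10.6 CPM in KO libraries (4.65 ± 0.40), where the WT libraries held 0 to 21 counts, so that the size of the change is poorly fixed. Of 13 tested genes in the list of immediate neighbours these were the 2 called. Mocs1, an enzyme of molybdenum cofactor synthesis 6.56 Mb away, was at 1.61 to 9.61 CPM in WT and 0.451 to 1.57 CPM in KO libraries, and its groups did not overlap within any state (−2.96 ± 0.25).

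Calls were more frequent along chromosome 17 than elsewhere. Of its 743 tested genes 49 were called (6.59%), against 439 of 14308 (3.07%) on the other autosomes and X, of which single chromosomes ran from 1.64% to 4.58%. Within 5 Mb of Sh3gl1 13 of 72 genes were called (18.1%), and from 5 to 10 Mb 7 of 70 (10%). Farther away the share was 5.21% from 10 to 20 Mb, 4.35% from 20 to 40 Mb and 5.97% beyond. Most of the calls within 5 Mb lay at Satb1, a chromatin organiser of lymphocytes 4.18 Mb from Sh3gl1, which with its neighbours was looked at after their values were seen. Within 0.5 Mb of Satb1, 9 of 11 genes were called, 8 higher and 1 lower, the others besides Satb1 being non-coding or predicted genes that lie close together or overlap. Satb1 was at 39.7 to 46.7 CPM in TRANS WT and 65.3 to 87.4 in TRANS KO cells, at 76.0 to 92.4 and 86.4 to 98.2 CPM in FO cells, and at 11.4 to 17.9 and 17.7 to 34.5 CPM in CD40L cells (0.57 ± 0.13). C230085N15Rik, the 1 gene there that was lower, was at 82.8 to 177 and 57.1 to 62.9 CPM in TRANS, at 122 to 211 and 73.3 to 92.2 CPM in FO, and at 32.2 to 40.8 and 18.3 to 24.7 CPM in CD40L cells, WT before KO (−0.91 ± 0.13).

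The MHC genes lie on the same chromosome, and the called ones with an H2 symbol were 19.9 Mb (H2-T10) to 21.9 Mb (H2-Oa) from Sh3gl1. Of the class II list, 6 of 8 members on chromosome 17 were called and 2 of 9 elsewhere, Ciita on chromosome 16 and Ctsl on chromosome 13. Of 26 tested genes with an H2 symbol 10 were called, all higher, and of the 104 other genes between the outermost of them 3 (2.88%). Nlrc5 is on chromosome 8. Whether position or the class of gene goes with these calls cannot be told apart from these libraries for the members on chromosome 17.

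**Figure D4:**
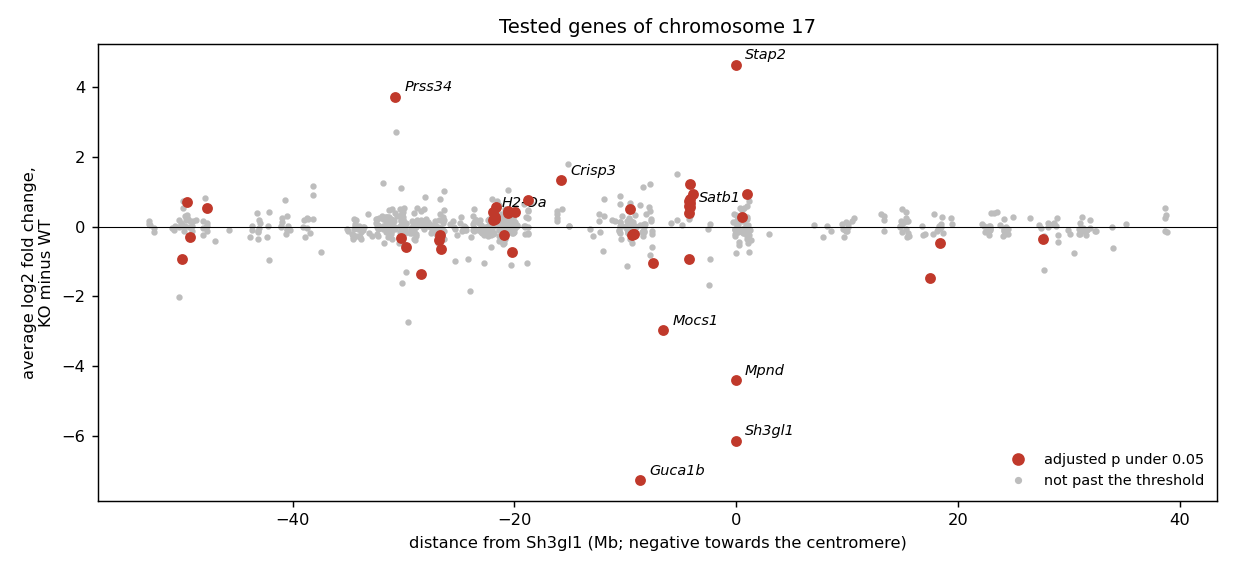
Average log2 fold change of KO over WT of the tested genes of chromosome 17 against their distance from Sh3gl1 in Mb, with genes at an adjusted p under 0.05 in red. Sh3gl1, Mpnd and Stap2 stand at or next to 0 Mb, and on the side of the centromere (negative distances) lie the red cluster around Satb1, 4.18 Mb away, and the H2 genes, 21.9 Mb away for H2-Oa.

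Markers of other blood cells also moved with genotype, beside 1.61% called higher and 1.65% called lower among all genes tested. Neutrophil markers were called higher in 6 of 9 tested, among them S100a8, S100a9, Camp and Ltf, and their sum ran from 9.98 to 184 CPM in WT and from 52.9 to 835 CPM in KO libraries. In each state KO replicate 1 was the highest, at 599, 835 and 198 CPM in TRANS, FO and CD40L cells. T cell markers were higher in 5 of 9, with sums of 72.7 to 223 CPM in WT and 95.8 to 336 CPM in KO, and Cd3e at 8.65 to 12.8 CPM in FO WT and 24.8 to 31.0 in FO KO cells. Of 11 macrophage markers the 3 complement genes C1qa, C1qb and C1qc were higher. The erythroid sum was 6.56 to 3981 CPM in WT and 31.7 to 9538 CPM in KO libraries. Of the 7 plasma cell markers Jchain stood out in TRANS KO cells, at 2774, 1066 and 4518 CPM against 649, 585 and 406 CPM in TRANS WT cells. Its average difference did not pass (1.045 ± 0.33, edgeR adjusted p = 0.091). Only Mzb1 was called, and it was lower. Dendritic cell, B-1 cell and platelet markers had 0 calls in edgeR. Of 7 B cell markers 4 were lower, Cd79a, Cd79b, Ms4a1 and Pax5, with sums of 9931 to 18995 CPM in WT and 8840 to 16548 CPM in KO. The part of these cells' RNA in the 492 calls was not tested beyond leaving libraries out: without all 3 KO replicate 1 libraries 214 genes were called, 206 of them among the 492.

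**Figure D5:**
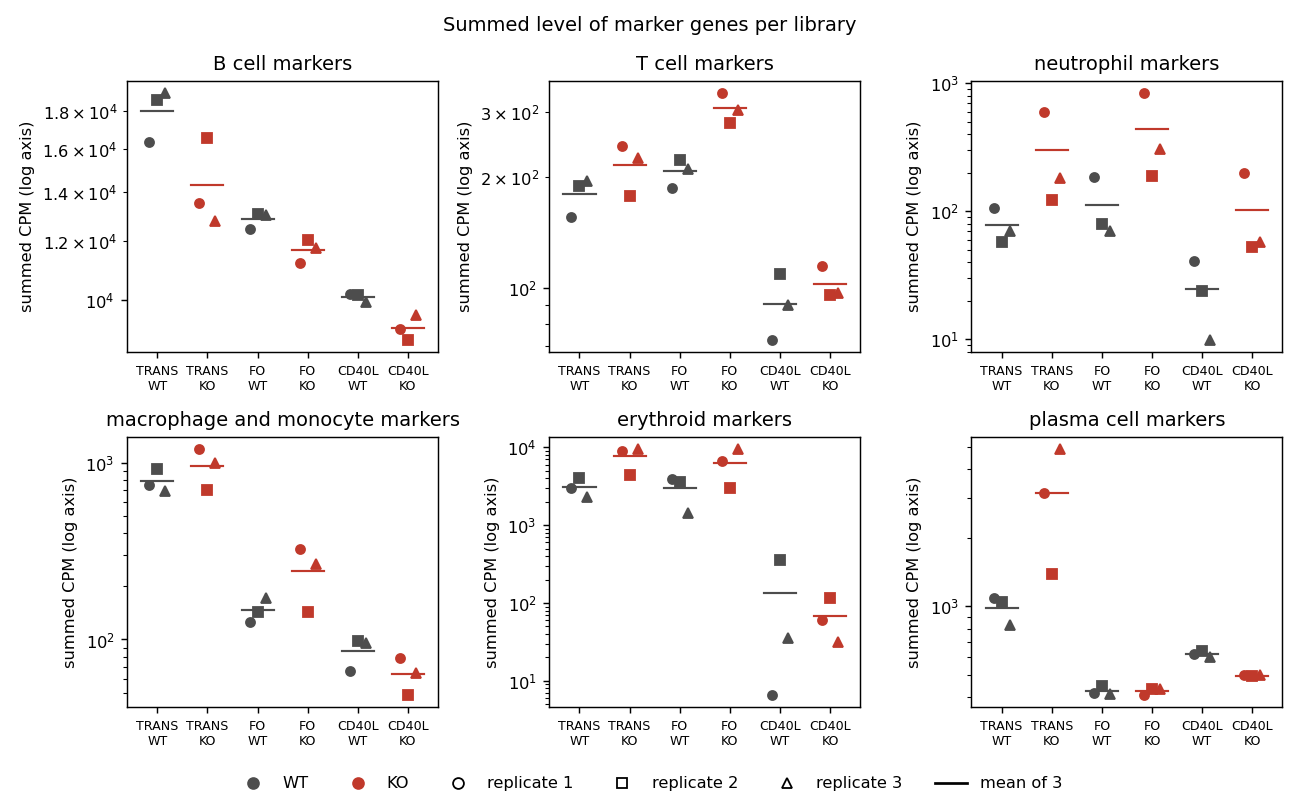
Summed CPM (log axis) of the marker genes of 6 cell types in each of the 18 libraries, with WT in grey, KO in red, the symbol giving the replicate number and the line the mean of 3. KO replicate 1 is the highest library for neutrophil markers in each state, at 599, 835 and 198 CPM, and B cell markers are the highest sums in every library.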

How the data were processed

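RNA was measured in 18 libraries, 3 for each genotype in each of 3 states. The deposited expected counts per gene were made by the authors with RSEM; the submitters' processing notes name cutadapt 1.9.1, STAR 2.5.2a and RSEM 1.3.0 with GRCm38, while the methods name TopHat and Cufflinks, and the labels and methods name different library kits. The deposited TPM values, made by the authors per transcript length, were tabulated beside the counts and none is printed; 18 FPKM columns of the same libraries were not used. Counts were rounded. R 4.3.3 with edgeR 4.0.16 was used: filterByExpr by group, TMM, glmQLFit and glmQLFTest, with state and genotype as terms; 6 group coefficients gave the state contrasts and the interaction. SE is the log2 fold change over the square root of F. Adjusted p is Benjamini-Hochberg over 15117 genes. Limma 3.58.1 and DESeq2 1.42.0 served as alternatives. The edgeR filter, scaling and tests were also run on simulated counts, and the alternatives were not. The simulated libraries were drawn independently, so the simulation cannot speak to the error rate if libraries share mice.

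Libraries were grouped by their labels, which call the 3 replicates of a group biological. Replicate numbers did not pair WT with KO (mean correlation −0.018). Positions and symbols were taken from GENCODE release M21 (GRCm38), in which 51719 of the 51912 identifiers were found. Named genes were Sh3gl1 and its paralogs, the 15 genes of lowest p in each direction with 1 sign in all states, and called members of 30 gene lists (the 4 of lowest p where more were called). Other genes, such as further called list members, Klra3, Klra9, markers and the genes around Satb1, were named after their values were seen. The members, lists and rules were chosen with earlier results of these data known. The count floor of 3 was a reference level, used also in the 4-fold screen of replicate numbers, and it entered no test of genotype. Alternatives were other scaling, filters, tools, blocks and left-out libraries. Results of some marker genes are not reported here.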

Additional observations from a re-analysis of the deposited data

How the results depend on the processing

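Of the 492 genes called on average over the states, the count was 1186 when all genes with at least 1 count were tested, 896 with DESeq2 and 113 with counts summed per genotype and number. It was 139 without TRANS and 327 without FO. Leaving out 1 number of a genotype in all states, an alternative chosen after the data were seen, gave 312 without WT replicate 2, 214 without KO replicate 1 and 286 without KO replicate 3. A replicate block (the number as a further term) gave 515, and single libraries left out gave 335 (TRANS_KO replicate 1) to 660 (CD40L_WT replicate 1). The TRANS, FO and CD40L counts were 984, 418 and 526 with all genes, 699, 184 and 387 with DESeq2, and 514, 115 and 3 when only the 6 libraries of the state were fitted. Single libraries left out gave 20 to 154 genes in TRANS, 21 to 35 in FO and 32 to 187 in CD40L cells. The difference between states had 444 calls with all genes, 78 with DESeq2, 3 with a block for each number within genotype, and 0 to 1 with a library left out. The cause of these shifts was not tested.

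No named gene that was called changed direction in the alternatives run. Of 81 named genes tested, 79 of them called, 37 missed the threshold with summed counts, 31 without TRANS, 25 without FO, 12 without CD40L, 28 when some number was left out in all states, and 2 under the replicate block. Numbers did not pair the genotypes: in 1 of 9 same-numbered WT and KO pairs the correlation passed 0.1. Depth limits what can be said of Stap2 and Iigp1, whose low groups held few or no counts.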

Other observations

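A few genes followed 1 replicate number of 1 genotype in every state by at least 4-fold. WT replicate 3 was the low one for 12 genes, of which 4 were among the 492 called: Gm15459, Gm26825, Jhy and Gm11942. Gm15459 was at 444, 429 and 5.05 CPM in TRANS WT, at 198, 237 and 6.55 in FO WT and at 621, 1037 and 4.83 in CD40L WT cells. In the KO libraries it was at 0 to 9.51 CPM, so that WT replicate 3 stood with the KO libraries in each state (average difference −5.71).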
